A study of Mus musculus with 10 samples.

Results

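The genes described here are the 10 carriers that move bile acids, phospholipid and organic anions into and out of the mouse hepatocyte, chosen by name: Slc10a1, Slco1a1, Slco1a4, Slco1b2, Slco2b1, Abcb11, Abcb4, Abcc2, Abcc3 and Abcc4. All 10 were found among the 24421 genes of the count table and all 10 passed the filter on low counts. Liver RNA came from male wild-type C57BL/6 mice (C57BL/6J in the study's methods) aged 21 weeks by the labels and fed without restriction, 5 on chow alone (Chow) and 5 on chow with TM5614 mixed in at 20 mg/kg/day for 10 days (TM5614). TM5614 is a small molecule given by mouth that inhibits PAI-1, the main inhibitor of the plasminogen activators. No group carried a transgene or a deletion, each mouse gave 1 poly(A) library, and the comparison addresses how hepatic transcripts differed when the drug was fed. PAI-1 activity in these mice is not given in the sources used here. The labels do not tie the mice to cages or to sequencing batches.

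Hepatocytes take up bile acids from sinusoidal blood and secrete them across the canalicular membrane into bile, which drives bile flow. Uptake of conjugated bile acids runs mainly through the sodium-coupled carrier NTCP (Slc10a1), and the organic anion transporting polypeptides (OATPs, Slco genes) take up unconjugated bile acids, bilirubin and many drugs without sodium. At the canalicular membrane, ATP-driven pumps export bile salts (BSEP, Abcb11), translocate phosphatidylcholine (MDR2, Abcb4) and export conjugated bilirubin (MRP2, Abcc2), while MRP3 (Abcc3) and MRP4 (Abcc4) return anions to blood. The nuclear receptors FXR (Nr1h4), PXR (Nr1i2), CAR (Nr1i3) and PPARα (Ppara), each paired with RXRα (Rxra), are known regulators of these carriers.

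The 250 bases before the annotated start are shown for 3 carriers, Abcb4, its canalicular neighbour Abcb11 and the uptake carrier Slc10a1. Slc10a1 is not an unchanged gene, since its levels did not overlap between the groups. The sequences are RefSeq windows on GRCm38.p6, written 5′ to 3′ along the gene's strand, in lower case, with capitals marking the core site of nuclear receptors, AGGTCA or its complement TGACCT. Slc10a1 is given by the window at its outermost start.

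Abcb4 (chr5:8893471-8893720, plus strand): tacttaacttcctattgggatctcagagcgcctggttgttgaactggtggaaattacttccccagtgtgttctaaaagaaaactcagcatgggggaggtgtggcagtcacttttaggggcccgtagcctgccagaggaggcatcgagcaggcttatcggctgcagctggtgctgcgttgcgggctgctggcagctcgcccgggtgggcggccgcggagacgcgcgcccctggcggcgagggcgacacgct
Abcb11 (chr2:69342617-69342866, minus strand): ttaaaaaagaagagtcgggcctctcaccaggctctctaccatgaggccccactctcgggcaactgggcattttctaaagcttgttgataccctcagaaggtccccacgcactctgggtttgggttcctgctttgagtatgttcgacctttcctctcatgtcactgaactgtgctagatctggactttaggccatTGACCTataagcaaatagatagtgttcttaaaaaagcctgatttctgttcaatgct
Slc10a1 (chr12:80968706-80968955, minus strand): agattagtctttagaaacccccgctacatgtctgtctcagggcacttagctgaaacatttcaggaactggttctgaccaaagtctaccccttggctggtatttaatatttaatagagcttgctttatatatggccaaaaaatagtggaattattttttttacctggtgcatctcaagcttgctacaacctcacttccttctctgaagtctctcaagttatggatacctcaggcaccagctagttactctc

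RefSeq windows matched 9 of the 10 genes, with 13 windows among them, and 7 motifs were searched on both strands. These were AGGTCA, its inverted and direct repeats with 1 base between the copies (both of which also hold AGGTCA), the antioxidant response element TGACNNNGC, the part of an HNF1 site GTTAATNAT, the part of a D-box TTATGNAA, and the E-box CACGTG. The Abcb4 window held none of them and was rich in G and C, at 61.6%. The Abcb11 window held 1 core site 56 bases before the start. A second Slc10a1 window, at an inner start, held a core site at 87 bases, and the outermost one held none.

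The core site stood in 14% of 32851 mouse windows of the same length, so a match is common. Core sites were also present before the RefSeq starts of Slco1a1, Slco1b2 and Abcc2. The Abcc2 window runs to 43782307, past the gene start of 43782192 in the annotation used for gene positions. The core site and the antioxidant element of Abcc2 both fall past that annotated start. The inverted repeat (0.00609% of windows), the direct repeat (0.0335%) and the D-box part (3.07%) matched no window of the 9 genes. The search allowed no mismatch, and the exact repeats stood in only 2 (inverted) and 11 (direct) of the 32851 windows. Their absence here is therefore uninformative. In the Abcb11 window the letters aggcca stand 1 base before TGACCT, a near match to the inverted repeat that the search did not count. The HNF1 part site (0.737% of windows) was found only before Slco1b2 among them, 66 bases from the start. The antioxidant element (10.2%) occurred in windows of Abcc2 and Abcc4 and the E-box (6.02%) in a window of Abcc4. These matches describe letters in the windows and no binding was measured.

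Abcb4 was the 1 carrier of 10 that passed an adjusted p of 0.05 in edgeR's quasi-likelihood test, and it rose. Of all 11092 genes tested, 4.50% passed in either direction, and the median log2 fold change over all of them was 0.01. The median over the carriers was 0.10, with 6 estimates above 0 and 4 below. Without adjustment, 3 carriers (Slc10a1, Slco2b1 and Abcb4) had an edgeR p under 0.05. The share of all genes under that unadjusted cut was not counted, so this number has no background and the 4.50% does not apply to it. The groups did not overlap for 2 carriers, Slc10a1 and Abcb4, where 8.93% of all genes tested did not overlap.

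Abcb4 (chr5:8893717-8959231, plus strand, GRCm38) encodes the canalicular floppase that delivers phosphatidylcholine to bile, where it forms mixed micelles with bile salts. In CPM (read counts relative to a library's total, scaled by the TMM method) its level was 408.2, 228.9, 363.7, 313.9 and 370.2 in Chow replicates 1 to 5. The TM5614 libraries gave 634.4, 470.3, 684.9, 729.7 and 637.9 CPM. Every TM5614 library lay above every Chow library, and replicate 2 was the lowest of its group in both.

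The means were 337 ± 69.1 CPM (SD, n = 5) in Chow and 631.4 ± 98.2 CPM (SD, n = 5) in TM5614, a 1.87-fold rise. The log2 fold change was 0.91 (edgeR, SE 0.17, adjusted p = 0.00851). Between 1981 and 6386 reads per library stood behind these values. A small share of its possible 75-base reads, 1.3%, also matched other genes, Abcb1a and Abcb1b among them. In bulk liver, more RNA per cell and more cells of a type cannot be told apart for this or any carrier.

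**Figure D1:**
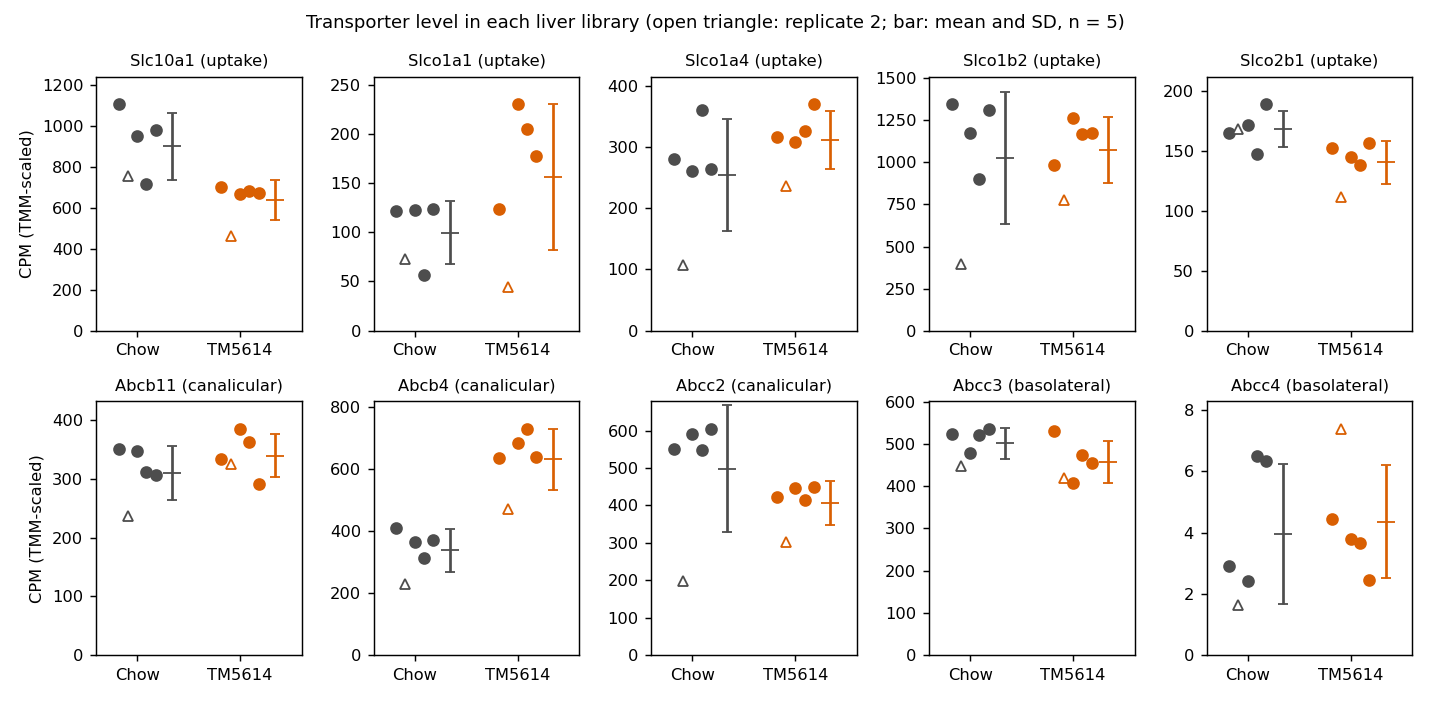
Level of each of the 10 carriers in CPM (vertical axes from 0, a scale per panel) in the 5 Chow (grey) and 5 TM5614 (orange) libraries, with open triangles for replicate 2 and bars for mean and SD. The Abcb4 points do not overlap between groups (228.9 to 408.2 against 470.3 to 729.7 CPM), and Chow replicate 2 is the lowest point of its group for 7 carriers.

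Abcb11 (chr2:69238282-69342616, minus strand), the bile salt export pump, shares the canalicular membrane with Abcb4. Its level was 350.9, 236.8, 347.5, 311.0 and 306.4 CPM in Chow and 334.6, 325.8, 385.7, 362.3 and 290.9 CPM in TM5614. The groups overlapped, and the log2 fold change was 0.13 (edgeR, SE 0.13, adjusted p = 0.578), or 0.04 (adjusted p = 0.842) without Chow replicate 2. Antisense genes cover 155 exonic bases of it, and whether strand was used in counting is not given in the sources used here.

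The ratio of Abcb4 counts to Abcb11 counts within a library separated the groups. It was 1.16, 0.967, 1.05, 1.01 and 1.21 in Chow replicates 1 to 5, and 1.90, 1.44, 1.78, 2.01 and 2.19 in TM5614 replicates 1 to 5. This ratio does not depend on how libraries are scaled. It was formed after the values were seen and has no test.

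Abcc2 (chr19:43782192-43840740, plus strand), which exports bilirubin glucuronides and glutathione conjugates into bile, had 549.8, 196.4, 591.1, 547.1 and 605.3 CPM in Chow. The TM5614 libraries gave 421.5, 303.1, 445.5, 413.3 and 448.1 CPM. Chow replicate 2 lay under all 5 TM5614 libraries, while the other 4 Chow libraries lay above all 5.

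Over the 10 libraries the log2 fold change of Abcc2 was -0.29 (edgeR, SE 0.25, adjusted p = 0.53). Without Chow replicate 2 it was -0.50 (SE 0.11, adjusted p = 0.0159), and limma-voom with sample quality weights on all 10 libraries gave -0.44 (adjusted p = 0.0225). With replicate 2 of both groups left out it was -0.41 (edgeR, SE 0.08, adjusted p = 0.00515). With GC content and transcript length corrected it was -0.40 (adjusted p = 0.121).

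Slc10a1 (chr12:80953183-80968705, minus strand), the sodium-coupled bile acid carrier NTCP, had 1107.6, 754.5, 950.3, 717.0 and 983.5 CPM in Chow. In TM5614 it had 703.9, 463.1, 670.2, 685.0 and 672.7 CPM. All TM5614 values lay under all Chow values. After the correction for GC content and length the groups met, with a lowest Chow value of 712.8 and a highest TM5614 value of 715.7 CPM.

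The means were 902.6 ± 163.7 CPM (SD, n = 5) and 639 ± 99.2 CPM (SD, n = 5). At -0.50 on the log2 scale, with an SE of 0.15, the difference missed the threshold in edgeR (adjusted p = 0.0949) and passed in DESeq2 (-0.50, adjusted p = 0.0351), in limma-voom (-0.50, adjusted p = 0.0178) and in edgeR without Chow replicate 2 (-0.56, adjusted p = 0.0291). The difference also passed in edgeR with replicate 2 of both groups left out (-0.46, adjusted p = 0.0233). The estimate stayed between -0.58 and -0.41 over the 20 alternative settings.

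The OATPs did not pass in the 10-library edgeR test. Slco1b2 (chr6:141629518-141686646, plus strand), the liver-specific OATP1B carrier of the mouse, had 1346.0, 395.7, 1173.1, 901.5 and 1310.5 CPM in Chow and 987.8, 773.7, 1267.3, 1170.6 and 1176.8 CPM in TM5614. Apart from Chow replicate 2 the libraries of both groups were interspersed. Its log2 fold change was 0.07 (edgeR, SE 0.27, adjusted p = 0.907) and turned to -0.14 (SE 0.15, adjusted p = 0.634) without Chow replicate 2.

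Slco1a1 (chr6:141907282-141946962, minus strand), an OATP1A carrier known in mice for higher hepatic expression in males, varied widely. Chow libraries gave 121.0, 73.2, 122.8, 56.7 and 123.4 CPM, and TM5614 libraries 123.1, 44.1, 229.9, 204.4 and 177.8 CPM. TM5614 replicate 2, which also held 3599.7 CPM of skeletal muscle markers, was the lowest of all 10, and 3 of the other TM5614 libraries lay above every Chow library. Whether the muscle content bears on that low value was not tested. The log2 fold change was 0.65 (edgeR, SE 0.37, adjusted p = 0.344), and 0.79 (SE 0.23, adjusted p = 0.0489) with replicate 2 of both groups left out. With GC content and length corrected it was 0.39 (adjusted p = 0.543).

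Slco1a4 (chr6:141805440-141856199, minus strand), an OATP1A carrier of bile salts and cardiac glycosides, ranged from 107.3 to 360.3 CPM in Chow and from 237.0 to 369.7 CPM in TM5614, with a log2 fold change of 0.29 (edgeR, SE 0.25, adjusted p = 0.529). The 107.3 CPM was Chow replicate 2, without which the log2 fold change was 0.09 (SE 0.13, adjusted p = 0.739), and without Chow replicate 4 it was 0.45 (adjusted p = 0.36). It shares 1.03% of its possible 75-base reads with other Slco1a genes, and Slco1a1 shares 1.08%. Slco2b1 (chr7:99657804-99711340, minus strand), an OATP found in many tissues, ranged from 147.2 to 189.1 CPM in Chow and from 111.3 to 156.6 CPM in TM5614. Its log2 fold change was -0.26 (edgeR, SE 0.12, adjusted p = 0.237). Antisense genes cover 549 of its exonic bases.

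The basolateral exporters, which carry anions back to blood, gave overlapping groups. Abcc3 (chr11:94343295-94392997, minus strand) ranged from 448.6 to 536.9 CPM in Chow and from 407.1 to 531.0 CPM in TM5614, with a log2 fold change of -0.13 (edgeR, SE 0.10, adjusted p = 0.488). Abcc4 (chr14:118482692-118706219, minus strand) had 17 to 69 reads in each library, or 1.64 to 6.50 CPM in Chow and 2.46 to 7.40 CPM in TM5614. Its log2 fold change of 0.14 had an SE of 0.40 (edgeR adjusted p = 0.862) and changed sign between settings.

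**Figure D2:**
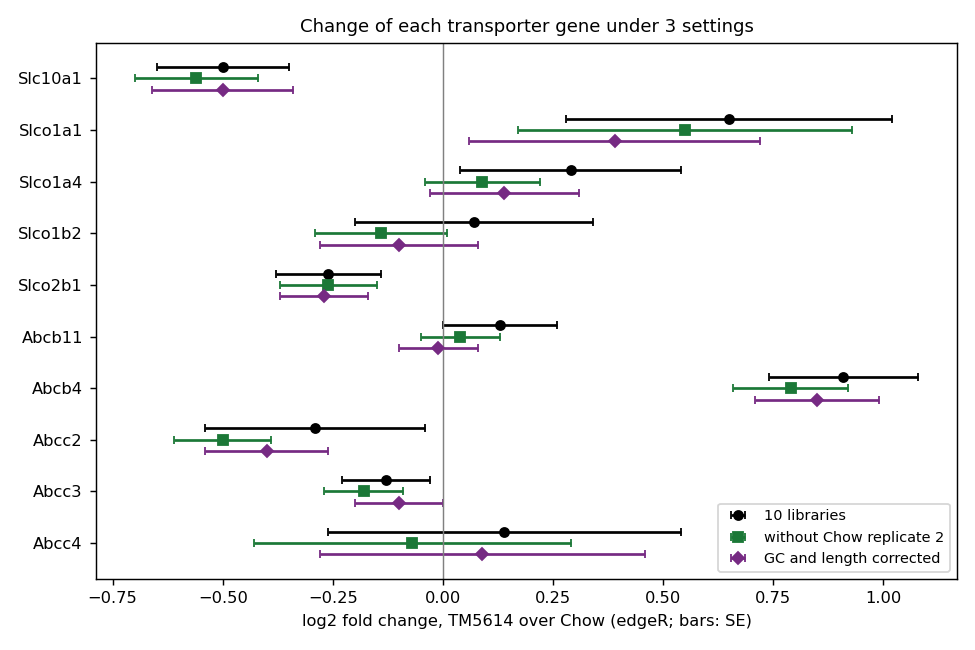
Log2 fold change of each carrier, TM5614 over Chow, with SE bars, from edgeR on the 10 libraries (black circles), without Chow replicate 2 (green squares) and with GC content and length corrected (purple diamonds). Abcb4 lies between 0.79 and 0.91 in the 3 settings, and Abcc2 lies between -0.50 and -0.29.

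Chow replicate 2 stood apart in the carriers. It lay below the other 4 Chow libraries for 7 of the 10 and above them for 0. How often it did so over all genes was not counted, so the 7 is not shown to be particular to the carriers. As a share of the median of those 4, its level was 31.9% for Slco1b2, 34.4% for Abcc2, 35.4% for Abcc4 and 39.4% for Slco1a4, and 100% for Slco2b1. A trend on GC content and transcript length over all genes accounted for 46.0% of this library's deviation from the gene medians, against 0.763 to 11.5% in the other 9 libraries. The trend alone put Slco1b2 at 58.4% and Abcc2 at 56.6% of their medians over all 10 libraries. That base differs from the 4 Chow libraries used for the measured percents, so the gap between them is not a measure. The 10 carriers together took 0.249% of its reads, against 0.329 to 0.474% in the other libraries.

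**Figure D3:**
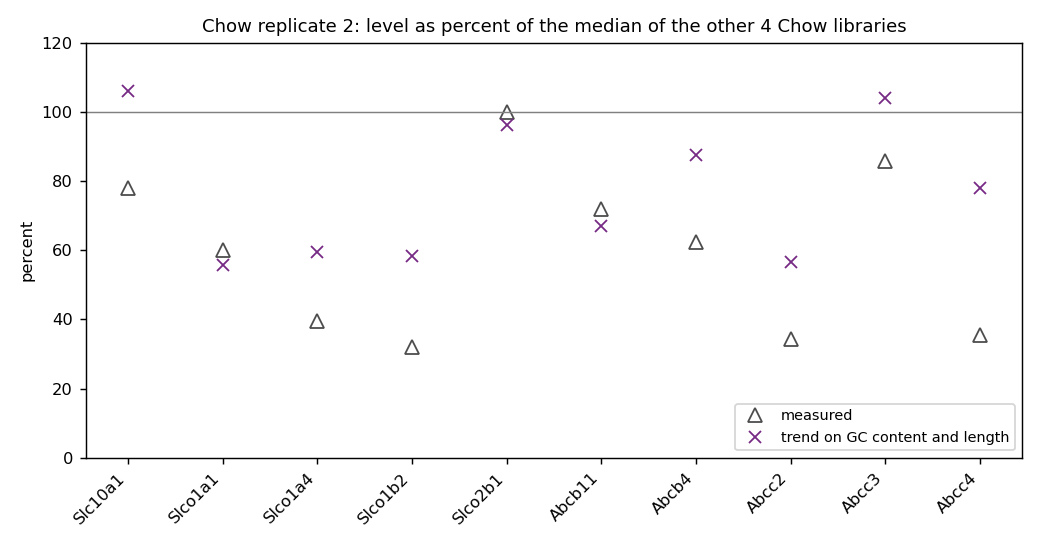
Level of each carrier in Chow replicate 2 as a percent of the median of the other 4 Chow libraries (triangles, vertical axis from 0). Crosses give the percent from the trend on GC content and length, which is relative to the median over all 10 libraries. The bases differ, so the gap between a triangle and its cross is not a measure. The triangles of Slco1b2, Abcc2, Abcc4 and Slco1a4 lie between 31.9 and 39.4%.

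With Chow replicate 2 left out, 3 of the 10 carriers passed in edgeR (Slc10a1 and Abcc2 fell, Abcb4 rose), where 9.24% of all genes tested passed, and the same 3 had groups that did not overlap, where 12.1% of all genes did so. After correction for GC content and length, 1 carrier passed, Abcb4 (6.62% of genes). DESeq2 on all 10 libraries called 2 carriers, Slc10a1 and Abcb4 (8.11% of genes), and limma-voom called 3, Slc10a1, Abcb4 and Abcc2 (12.5% of genes). Abcb4 passed in all 20 alternative settings, with log2 fold changes from 0.79 to 0.99.

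Per gene length, in the FPKM values of the authors, Slc10a1 and Slco1b2 were the most abundant carriers in Chow, at 424.4 ± 77.9 and 307.4 ± 118.1 FPKM (SD, n = 5). Their libraries overlapped. Abcc3 (99.2 FPKM), Abcc2 (91.3), Abcb4 (81.7), Slco1a4 (65.8) and Abcb11 (62.7) followed, and among these 5 each overlapped the next in Chow. Slco2b1 (33.4 FPKM) and Slco1a1 (24.8) overlapped each other and Abcc4 was last, at 0.663 FPKM. The Chow libraries did not overlap between Slco1b2 and Abcc3, between Abcb11 and Slco2b1 and between Slco1a1 and Abcc4. The order depends on the length used, since Abcc2 is 2.56 times as long as Slc10a1 in the FPKM values and 4.59 times by the longest annotated transcript.

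In TM5614 the order changed at several places. Slco1b2 (321.9 FPKM) and Slc10a1 (300.0 FPKM) exchanged the top places, with overlapping libraries. Abcb4 moved from rank 5 to rank 3, at 152.9 ± 24.8 FPKM (SD, n = 5). Of the summed FPKM of the 5 uptake carriers, Slc10a1 made up 45.3 to 64.2% in the Chow libraries and 36.6 to 43.0% in the TM5614 libraries. Slco1b2 made up 21.5 to 39.6% and 38.5 to 44.1%. Chow replicate 2 alone set the 64.2% and the 21.5%, and without it the Chow shares were 45.3 to 49.1% for Slc10a1 and 36.3 to 39.6% for Slco1b2. The Slco1b2 shares of the groups overlapped with and without it. These shares were chosen after their values were seen and have no test.

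**Figure D4:**
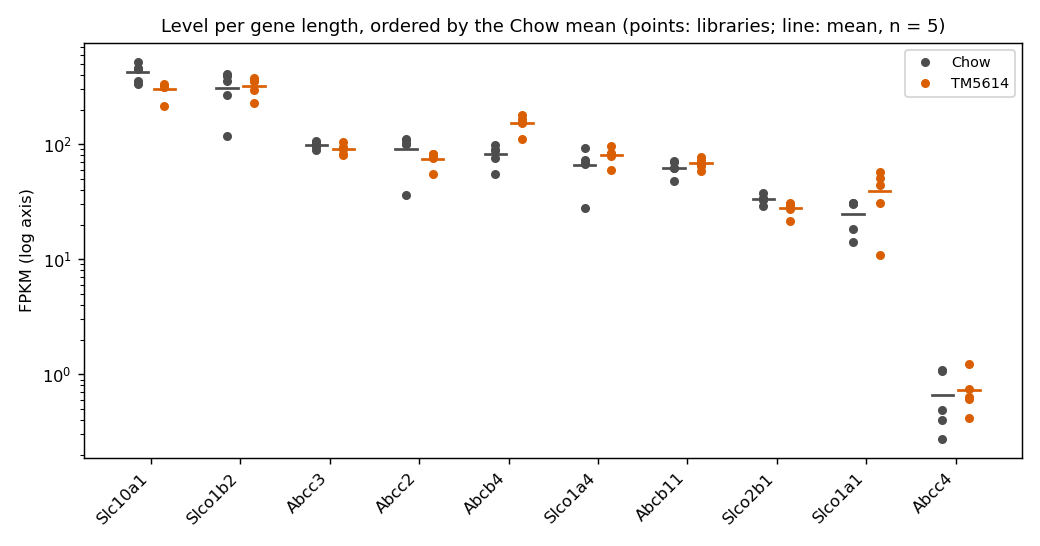
FPKM of each carrier (log axis) in the Chow (grey) and TM5614 (orange) libraries, ordered by the Chow mean, with a point per library and a line at the mean of 5. Levels run from 424.4 FPKM for Slc10a1 to 0.663 FPKM for Abcc4 in Chow, and Abcb4 stands at 81.7 FPKM in Chow and 152.9 FPKM in TM5614.

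Of the other genes tested, those whose deviations from the group means were most like those of Abcb4 over the 10 libraries were Aldh3a2 (Pearson r = 0.987, Spearman rho = 0.964) and Hsd17b4 (r = 0.985, rho = 0.964), out of 11091 compared. Aldh3a2 encodes fatty aldehyde dehydrogenase and Hsd17b4 the peroxisomal multifunctional enzyme of beta-oxidation. Without the libraries farthest from the median, replicate 2 of each group, r was 0.948 and 0.934. The points share library depth and the GC trend of Chow replicate 2. The genes' own log2 fold changes were 0.57 (edgeR adjusted p = 0.208) and 0.52 (adjusted p = 0.106).

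A list of 52 genes related to the carriers held 45 that passed the filter on low counts. Of these, 0 rose and 3 fell in edgeR (Slc9a3r1, Rxra and Slc22a7), 17 estimates lay above 0 and 28 below, and the median log2 fold change was -0.05. For several listed genes there was almost no signal. Slc51a, which with Slc51b forms the basolateral bile acid exporter OST, had 0 reads in all libraries and Slc51b at most 6. Slco1a6 had 0 reads, and Slco1a5, Slco1c1, Vdr and Gpbar1 had at most 2 in any library.

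Slc9a3r1 encodes NHERF1, a PDZ scaffold that links membrane carriers to the actin cortex. It ranged from 169.8 to 250.2 CPM in Chow and from 102.1 to 138.1 CPM in TM5614, so the groups did not overlap. It fell by 0.78 on the log2 scale (edgeR, SE 0.13, adjusted p = 0.0063) and passed in all 20 alternative settings. The other 8 scaffold and traffic genes, among them those for radixin (Rdx) and PDZK1 (Pdzk1), did not pass.

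Among the transcription factors, 1 of 16 tested passed. Rxra, the shared partner of the nuclear receptors, ranged from 571.0 to 642.6 CPM in Chow and from 412.0 to 506.5 CPM in TM5614. It fell by 0.38 on the log2 scale (edgeR, SE 0.09, adjusted p = 0.0417), and 12 of 20 alternatives, each with the same direction, did not pass.

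Partners of Rxra did not pass in edgeR on the 10 libraries. The bile acid receptor Nr1h4 had a log2 fold change of -0.38 (edgeR, SE 0.13, adjusted p = 0.132), Nr1i2 of -0.31 (SE 0.10, adjusted p = 0.113) and Nr1i3 of -0.67 (SE 0.22, adjusted p = 0.113). Nr1i2 ranged from 85.3 to 106 CPM in Chow and from 69.4 to 84.9 CPM in TM5614, with no overlap. With the other tools Nr1i2 passed in DESeq2 (adjusted p = 0.0355) and limma-voom (adjusted p = 0.0393), Nr1i3 in DESeq2 (adjusted p = 0.0498) and Nr1h4 in limma-voom (adjusted p = 0.0472). For Ppara it was -0.03 (edgeR, SE 0.14, adjusted p = 0.922). Nr0b2 (SHP), a corepressor that FXR is known to induce, had -0.12 (edgeR, SE 0.24, adjusted p = 0.793).

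The other canalicular genes gave 0 calls of 8 in edgeR on the 10 libraries. Abcg5 and Abcg8, which together form the sterol exporter, had log2 fold changes of -0.31 (edgeR, SE 0.17, adjusted p = 0.323) and -0.25 (SE 0.15, adjusted p = 0.374), and Atp8b1, an aminophospholipid flippase, 0.10 (SE 0.25, adjusted p = 0.835). Abcg5 passed in limma-voom (-0.49, adjusted p = 0.0207) and without replicate 2 of both groups (-0.57, adjusted p = 0.00274), where Abcg8 passed as well (-0.41, adjusted p = 0.0437). Without TM5614 replicate 2 alone Abcg5 was at -0.50 (adjusted p = 0.0618). Abcb1a, a drug efflux pump and close relative of Abcb4, had 13 to 91 reads and a log2 fold change of -1.16 (edgeR, SE 0.35, adjusted p = 0.0932). It passed in 5 of 20 alternatives. Among these were DESeq2 (-1.17, adjusted p = 0.0243), limma-voom (-1.49, adjusted p = 0.00323) and edgeR without Chow replicate 2 (-1.38, adjusted p = 0.00728). The rest were edgeR with GC content and length corrected (-1.27, adjusted p = 0.0258) and without replicate 2 of both groups (-1.52, adjusted p = 0.00438).

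On the sinusoidal and basolateral side, 1 of the 9 other genes tested passed. Slc22a7, the organic anion transporter OAT2, had 10.2 ± 6.03 CPM (SD, n = 5) in Chow and 2.97 ± 1.43 CPM (SD, n = 5) in TM5614, with overlapping libraries and 8 to 192 reads. It fell by 1.79 on the log2 scale (edgeR, SE 0.44, adjusted p = 0.041), and the call was lost in 9 of 19 alternatives with the same direction. Abcc6, an exporter needed for hepatic ATP release, had -0.46 (edgeR, SE 0.13, adjusted p = 0.0658). It passed in 6 of 20 alternatives, which were DESeq2 (adjusted p = 0.0124), limma-voom (adjusted p = 0.0187) and edgeR without Chow replicate 1 (adjusted p = 0.0442), Chow replicate 2 (adjusted p = 0.0363), TM5614 replicate 1 (adjusted p = 0.0445) or replicate 2 of both groups (adjusted p = 0.0424). Of the genes that sense bile acids or gut FGF signals, 0 of 3 tested passed.

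**Figure D5:**
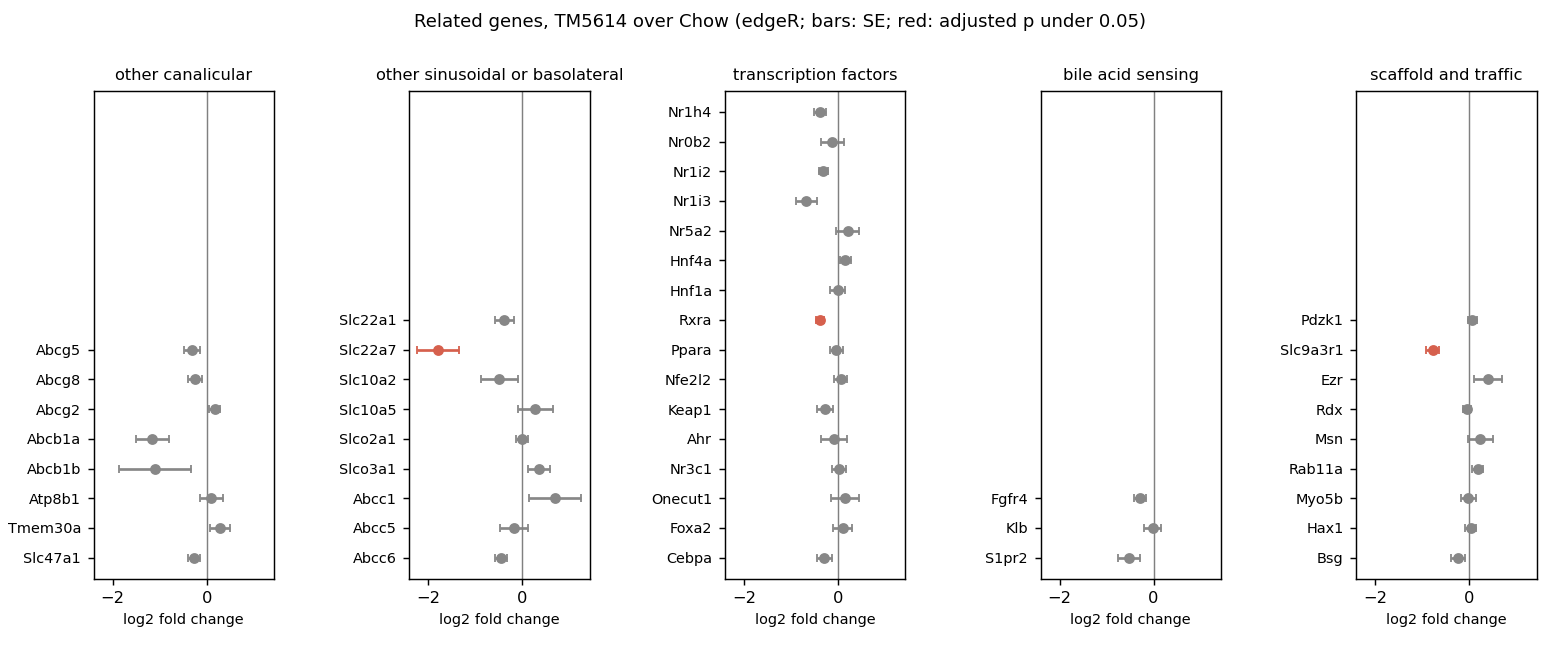
Log2 fold change, TM5614 over Chow, of the 45 related genes tested, with SE bars, in panels by role, with the genes that passed in red. Slc22a7 (-1.79), Slc9a3r1 (-0.78) and Rxra (-0.38) are the 3 red points.

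Library totals ran from 6398335 to 10874955 counts and did not differ between groups (exact permutation test, two-sided, p = 0.325). The tissue label held, since the 8 hepatocyte markers summed to 114011.6 to 127800.3 CPM in Chow and 101356.8 to 116550.3 CPM in TM5614, with 0 of 8 called. Markers of cholangiocytes (4 of 8 tested), Kupffer cells (9), endothelium (7), stellate cells (7) and periportal hepatocytes (8) also gave 0 calls. The stellate markers summed to 161 to 287 CPM in Chow and 259.3 to 344.1 CPM in TM5614. Of 10 pericentral markers, Axin2 rose and Lect2, Cyp1a2, Gulo and Rgn fell, and the list summed to 12408.5 to 18593.4 CPM in Chow and 11952.8 to 16733.4 CPM in TM5614. The 1 tested marker of a list for proximal tubule or intestine, Fabp2, rose by 1.03 on the log2 scale (edgeR adjusted p = 0.000676), and that list of 5 summed to 59.9 to 79.6 CPM in Chow and 132 to 170.3 CPM in TM5614, with 2 of its genes at 3 counts or fewer in every library. Skeletal muscle markers, 0 of 7 tested, summed to 3599.7 CPM in TM5614 replicate 2, at most 62.6 CPM in the other TM5614 libraries and 0.606 to 1.25 CPM in Chow. The part of these markers in the values of the carriers was not tested.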

How the data were processed

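Poly(A) RNA of liver (flash-frozen by the labels, stored in RNAlater before extraction by the study's methods) was made into KAPA mRNA HyperPrep libraries and read as 75-base single ends. The authors aligned the reads to mm10 with STAR and deposited raw counts per gene and FPKM values, the latter scaled by depth and gene length. The submitters' processing notes also name HOMER and DESeq2. The annotation, tool versions and use of strand are not given in the sources used here. Columns of the authors' own comparison (fold changes and p-values) and their transformed values were not used.

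The deposited counts were filtered with filterByExpr, scaled by TMM and tested with edgeR 4.0.16 (quasi-likelihood, Benjamini-Hochberg over the 11092 genes tested, threshold 0.05) in R 4.3.3, Chow against TM5614, with no covariate. Alternatives were DESeq2 1.42.0, quality-weighted voom in limma 3.58.1, scaling by upper quartile or RLE, a replicate block, robust dispersion, omitting the filter or asking for 10 counts per library throughout, and dropping the libraries singly. A GC content and transcript length correction (splines with 5 degrees of freedom) and leaving out replicate 2 of both groups were chosen after seeing the data. Levels between genes were compared in FPKM only. CPM values per library used TMM-scaled totals with no pseudocount.

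Gene positions were matched by symbol to GENCODE M21 (GRCm38, which is mm10). The edgeR and alternative fits were tested on simulated data. Library pairs within a group differed beyond sampling noise (20 pairs, lowest chi-square per degree of freedom 7.98). P-values set the group difference against the spread between mice within the groups. Cages and batches are not known, so their part in the group difference was not tested.

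The carriers and all lists were chosen with earlier results of these data known. Named were all carriers, related genes that passed or are known direct partners or regulators, and the 2 genes most like each carrier called.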

Additional observations from a re-analysis of the deposited data

Results flagged for a closer look

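In 3 of the 20 sets of 5 libraries examined, 2 sets for each carrier, the highest or lowest library lay far from the others relative to the range of the set. For a single set, chance gives such a distance in about 1 of 20 cases. The 20 sets share the same libraries and are not independent, and all 3 flags fell on replicate 2 of a group. The 3 of 20 therefore cannot be set against that rate. Abcc2 in Chow replicate 2 was 196.4 CPM, against 547.1 to 605.3 CPM in the other Chow libraries. Abcc2 in TM5614 replicate 2 was 303.1 CPM, against 413.3 to 448.1 CPM. Slc10a1 in TM5614 replicate 2, the library with 3599.7 CPM of skeletal muscle markers, was 463.1 CPM, against 670.2 to 703.9 CPM in the other TM5614 libraries. The hepatocyte markers of that library summed to 108323.6 CPM, within the TM5614 range of 101356.8 to 116550.3 CPM. The cause of these distances was not tested.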

How the results depend on the processing

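Abcb4 and Slc9a3r1 passed, in the same direction, in all 20 alternatives. Carriers called numbered 1 in edgeR, 2 in DESeq2, 3 in limma-voom, 4 with replicate 2 of both groups left out, and 1 to 3 with each library left out in turn, the 3 without Chow replicate 2. All genes called numbered 499, and 900, 1386, 1230 and 235 to 1031 in the same settings. Related genes called numbered 3, and 7, 8, 7 and 1 to 5, with 1 under no filter and 1 under the replicate block. Same-numbered libraries did not deviate together in every pair (correlations 0.03 to 0.32, and 1 of 5 numbers best with its own), and the replicate block called 555 genes and 1 carrier, Abcb4 (0.92, adjusted p = 0.00421), and lost Rxra and Slc22a7.

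Log2 fold changes that turned in sign all belonged to genes that did not pass. Slco1b2 turned to -0.06 in limma-voom, -0.10 with GC content and length corrected, -0.04 without both replicates 2, and ran from -0.14 to 0.18 with each library left out. Abcb11 turned to -0.01 with the correction. Abcc4 turned to -0.04 in limma-voom and -0.34 without both replicates 2, and ran from -0.14 to 0.41 with each library left out. Nr0b2 turned to 0.17 with the correction and ran from -0.26 to 0.01 with each library left out, Ppara turned to 0.03 without both replicates 2 and ran from -0.10 to 0.05, and Atp8b1 turned to -0.07 in limma-voom and -0.07 without both replicates 2 and ran from -0.11 to 0.19. The order of carriers by level per length changed at 3 ranks with CPM over annotated length and at 0 to 2 with each Chow library left out. The causes were not tested. Abcc4 (17 to 69 reads) and Slc22a7 (8 to 192 reads) were thinly covered, and the part of counting error in their spread was not tested. Slc22a7 was not tested under the filter of 10 counts.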
